A study of Drosophila melanogaster with 20 samples.

Results

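The nuclear genes for oxidative phosphorylation subunits were followed in Drosophila SL2 cells after knockdown of selenophosphate synthetase 1 (SPS1) by double-stranded RNA, or dsRNA. A gene was included when 1 gene symbol stood on its probe set and that symbol began with ND-, UQCR-, COX4 to COX8, or ATPsyn. Each gene was read from its probe set with the highest mean signal. This gave 66 of the 11982 named genes on the array. They were 27 genes of complex I, 4 of complex III, 7 of complex IV and 10 of complex V, 48 subunits in all, and 18 paralogs whose symbols end in L, or in L and a digit, which were kept apart. ND-MNLL also ends in L but is named for its sequence letters, and it was counted in complex I.

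SL2 is a line from Drosophila embryos with features of blood cells. RNA was measured on 20 Affymetrix Drosophila Genome 2.0 arrays at day 1, 3 or 5 to look for genes that respond, directly or not, to loss of SPS1. The 6 groups were untreated cells and cells given SPS1 dsRNA at each day, with 5 samples in each day 1 group and 2 in each later group, and the day 3 groups each had 1 technical array besides. The dsRNA was put into the medium of plated cells, which were moved to new dishes after a day, and all cells grew in HyQ SFX-Insect medium. As the controls had no dsRNA of any kind, the response to dsRNA itself and that to SPS1 loss cannot be told apart. The level of the SPS1 transcript was not analysed here. The source label of the day 5 knockdown samples describes them as untreated, whereas both of their other labels give SPS1 dsRNA, and the title was followed. Replicates are called biological in the labels, with no word on separate cultures or transfections, so p-values here measure sample-to-sample spread, part of which may be technical.

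Oxidative phosphorylation takes place in the inner mitochondrial membrane. Complexes I, III and IV pass electrons from NADH to oxygen and pump protons outward, and complex V, the ATP synthase, uses the returning protons to make ATP. Most subunits are encoded in the nucleus and a few in the mitochondrial genome, so that the complexes need subunits from both. In Drosophila several subunits have a second gene copy, and many such copies are used mainly in the testis.

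With SPS1 dsRNA the signals of these genes stayed within 2-fold of their untreated levels, as judged by 95% intervals. No member passed at day 1, 3 or 5 in limma's test (adjusted p under 0.05 across all 18769 probe sets), where 0, 0.176 and 2.79% of all probe sets passed. At an unadjusted p under 0.05, 1, 0 and 3 members passed, against 1.55, 3.37 and 12.6% of all probe sets. The median change of the 48 subunits, SPS1 dsRNA minus untreated on the log2 scale, was 0.0004 at day 1, 0.029 at day 3 and −0.023 at day 5, beside 0.0014, 0.0017 and 0.015 for all probe sets. The whole range of the subunits ran from −0.05 to 0.10 at day 1, from −0.14 to 0.20 at day 3 and from −0.35 to 0.41 at day 5.

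The 95% intervals bound how large a change of signal could have been missed. At each day the intervals of all 66 members lay inside 1 log2 unit, a 2-fold change, in either direction. Inside 0.5 log2 units lay 66 members at day 1, 60 at day 3 and 54 at day 5. The bound farthest from 0 was 0.377 at day 1, 0.646 at day 3 and 0.728 at day 5. The intervals at days 3 and 5 are wider because each group then held 2 samples. The probe sets of ND-B8 and of 9 paralogs lay below the array median in every sample, and RMA compresses changes at low signal. For these the intervals say little about the transcript.

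Both groups of a day carry the same replicate numbers, and same-numbered samples varied together, so a second fit took each numbered pair as a block. With the block 0, 0 and 2 members passed at days 1, 3 and 5, where 0, 1.25 and 12.2% of all probe sets passed. The 2 were UQCR-11 of complex III, which was higher, as were 5.07% of all probe sets, and ND-B14.5B of complex I, which was lower, as were 7.14%. With the block the intervals of 63 members at day 5 lay inside 0.5 log2 units.

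**Figure D1:**
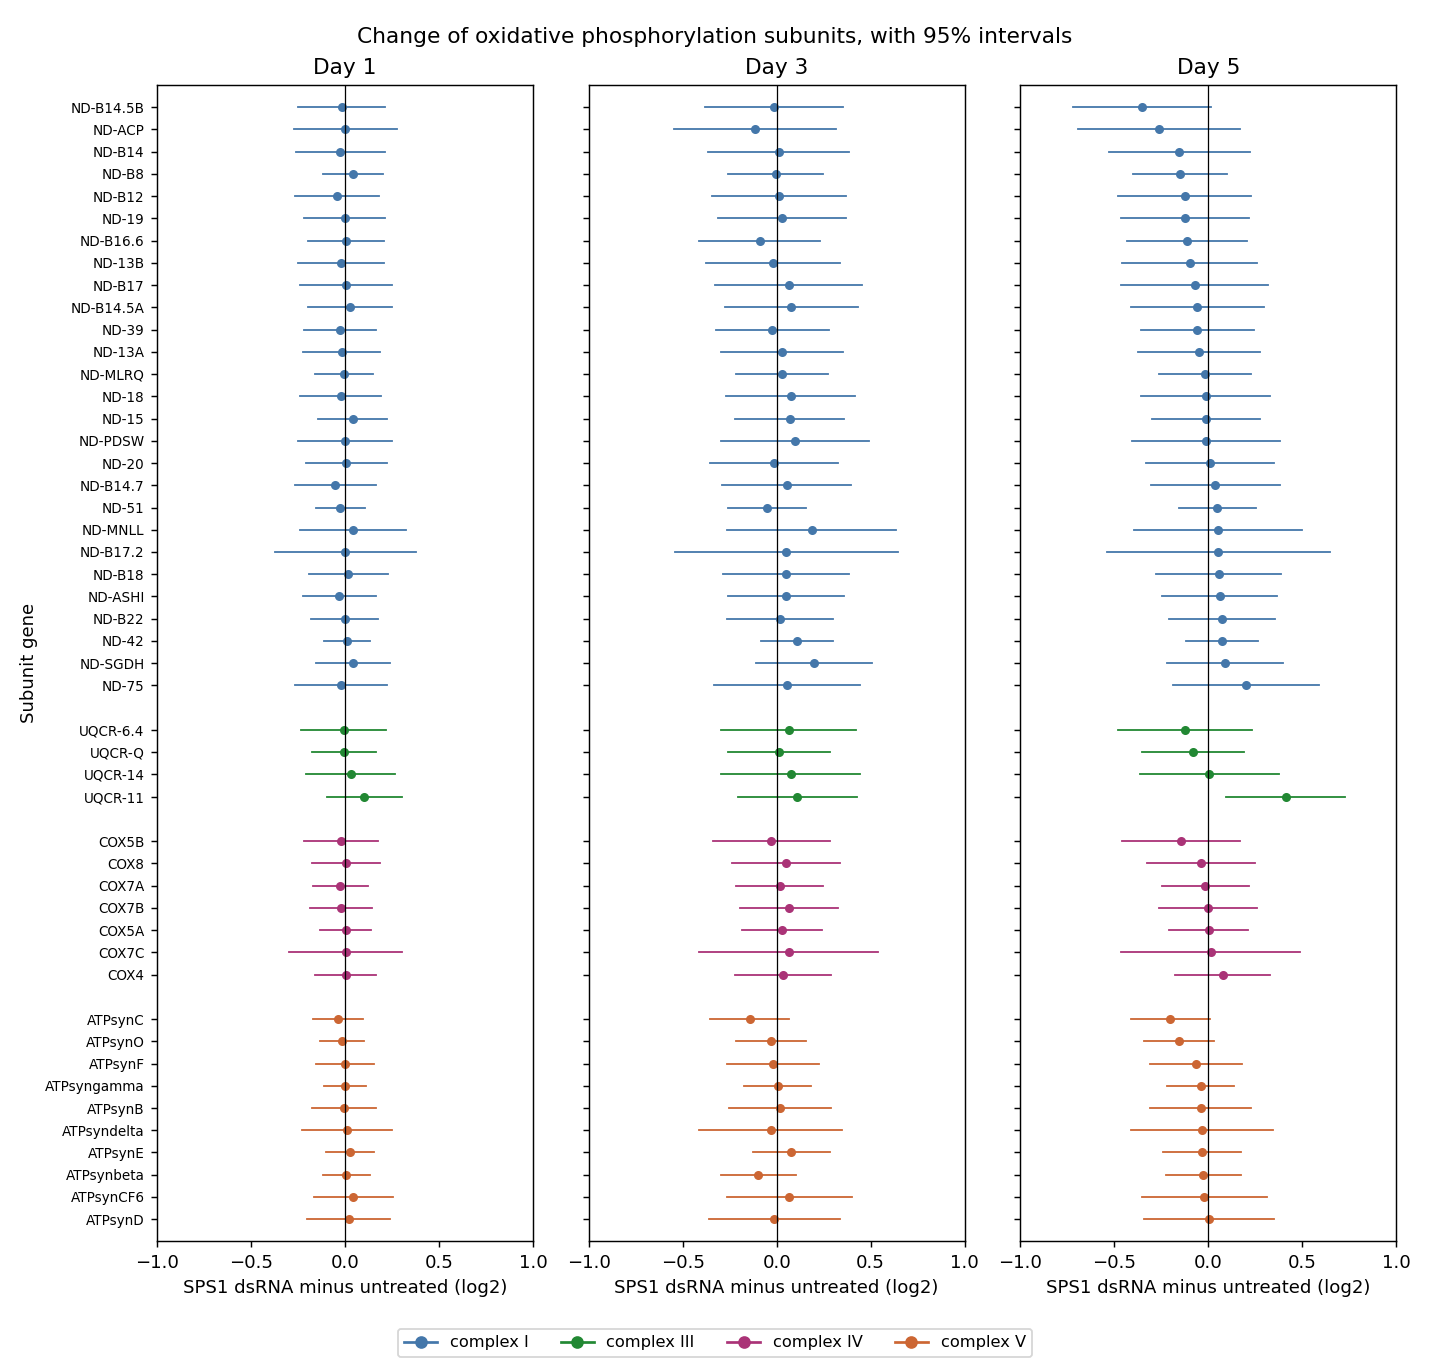
Change of each of the 48 subunits (vertical axis) at days 1, 3 and 5, as SPS1 dsRNA minus untreated in log2 units (horizontal axis), from the fit without the replicate block. Points are fitted changes, bars are 95% intervals, colours are complexes, and genes are ordered within a complex by the change at day 5. Of the day 5 intervals, 47 cover 0, and that of UQCR-11 does not.

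Complex I takes electrons from NADH. Its 27 measured genes had a median change of −0.0014 at day 1, 0.031 at day 3 and −0.014 at day 5, and at day 5 the change was above 0 in 11 and below 0 in 16 (17 and 10 after cyclic loess scaling, 4 and 23 after each array's median was subtracted). Without the first knockdown sample of day 5 the change was above 0 in 15 and below in 12, with a median of 0.035. The 3 core subunits, ND-75, ND-51 and ND-20, which carry the flavin or iron-sulfur clusters that electrons pass through, had changes of 0.20, 0.05 and 0.0085 at day 5. Of the 24 accessory subunits, which surround the core, 8 were above 0 and 16 below.

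ND-B14.5B, an accessory subunit, had the lowest change of complex I at day 5. Its log2 values at day 5 were 11.92 and 11.86 in untreated cells and 11.42 and 11.66 in knockdown cells. Both knockdown values lay below both untreated values, and the first knockdown sample was the lower one. At day 1 the values ran from 11.47 through a median of 11.70 to 12.01 in untreated cells and from 11.50 through 11.70 to 11.93 in knockdown cells, so that the groups overlapped. The day 3 values were 11.76 and 11.70 untreated and 11.85 and 11.59 with dsRNA, with the untreated values between the others. The change at day 5 was −0.35 (SE 0.17, a 1.28-fold decrease, 95% interval −0.72 to 0.01). Its adjusted p in limma was 0.423 without the block and 0.025 with it. With the block and only the first pair of day 5 the change was −0.50 (adjusted p in limma 0.0212), and with only the second pair it was −0.21 (adjusted p in limma 0.437).

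ND-75, the largest core subunit, had the highest change of complex I at day 5. Its values were 9.47 and 9.59 in untreated cells and 9.63 and 9.83 in knockdown cells. The knockdown values lay above the untreated ones, by little between the nearest 2. The change was 0.20 (SE 0.18, interval −0.19 to 0.59), with an adjusted p in limma of 0.761, or 0.117 with the block. The day 1 values of untreated cells reached from 9.55 to 10.08, which takes in every ND-75 value of day 5 except the lowest. After cyclic loess scaling the change passed with the block, at 0.29 (adjusted p in limma 0.0274).

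ND-ACP, the mitochondrial acyl carrier protein, had the second lowest change of complex I at day 5. Its values were 12.38 and 12.46 in untreated cells and 12.05 and 12.26 in knockdown cells, and the groups did not overlap. The change was −0.26 (SE 0.20), with an adjusted p in limma of 0.706, or 0.0576 with the block. ND-ACP was chosen for its place beside ND-B14.5B, after its values were seen. It has 3 probe sets, and they did not move alike, since the others changed by −0.16 and 0.20 at day 5. No probe set of the 6 genes with several passed at day 5 without the block.

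Signals of different probe sets depend on the probes as well as on the RNA, so their order says how bright a probe set was and not which transcript was more abundant. The brightest probe set of complex I was that of ND-MLRQ, at 13.28, whose mammalian counterpart NDUFA4 was later placed in complex IV. Its values at day 5 were 13.21 and 13.37 in untreated cells and 13.14 and 13.40 in knockdown cells. The knockdown values lay on both sides of the untreated ones. The lowest was the accessory subunit ND-B8, with a mean of 3.13 and a change of −0.15 (SE 0.12) at day 5. Its probe set lay below the array median in every sample, so its values say little about the transcript. In all samples 25 of the 27 probe sets lay above the array's upper quartile (7.82 to 8.14), the exceptions being ND-B8 and ND-B12.

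Complex III hands electrons from ubiquinol to cytochrome c. Of its 4 measured genes 2 were above 0 at day 5 and 2 below, with a median change of −0.038, or 0.021 after cyclic loess scaling and −0.10 after array medians were subtracted. UQCR-11, a small accessory subunit, had the largest change of the 66 members at day 5. Its log2 values at day 5 were 5.83 and 5.95 in untreated cells and 6.14 and 6.46 in knockdown cells, without overlap. At day 1 they ran from 5.82 through 5.98 to 6.11 in untreated cells and from 5.95 through 6.17 to 6.19 in knockdown cells. At day 3 they were 6.31 and 6.02 untreated and 6.47 and 6.09 with dsRNA. The groups overlapped at both earlier days, and the first untreated sample of day 3 was above the first knockdown sample of day 5.

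The UQCR-11 change at day 5 was 0.41 (SE 0.15, a 1.33-fold increase, interval 0.10 to 0.73). Its adjusted p in limma was 0.209 without the block and 0.00545 with it. With the block and only the second pair of day 5 the change was 0.51 (adjusted p in limma 0.0231), and with only the first pair it was 0.31 (adjusted p in limma 0.0924). The day 5 change exceeded the day 1 change by 0.31 and the day 3 change by 0.30, and neither difference passed with or without the block. UQCR-11 had the lowest mean signal of complex III, 6.10, and RMA compresses changes at low signal.

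The other 3 genes of complex III had mean signals from 10.75 to 12.81. UQCR-6.4, a small subunit with the highest signal of the complex, had the lowest change at day 5. Its values were 12.83 and 12.86 in untreated cells and 12.69 and 12.75 in knockdown cells, which did not overlap, and its change was −0.13 (SE 0.17, adjusted p in limma 0.864). The changes of UQCR-Q and UQCR-14 were −0.08 and 0.0065.

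Complex IV, cytochrome c oxidase, reduces oxygen. Its 7 measured genes are nuclear subunits around the catalytic core. Their changes at day 5 ran from −0.15 to 0.08 with a median of 0, and 3 were above 0, 3 below and COX7B at 0, with 5 above 0 after cyclic loess scaling and 1 after each array's median was subtracted. Without the first knockdown sample of day 5 the median was 0.046, and without the second it was −0.10. All 7 intervals at day 5 lay inside 0.5 log2 units. COX5B, the subunit with the lowest change and the lowest mean signal, had values of 11.96 and 12.04 in untreated cells and 11.75 and 11.96 in knockdown cells. The second knockdown sample was barely below the first untreated one, and the change was −0.15 (SE 0.15, adjusted p in limma 0.794). COX4, with the highest change, had values of 11.98 and 11.92 untreated and 12.03 and 12.03 with dsRNA, a change of 0.08 (SE 0.12, adjusted p in limma 0.891). COX5A, with the highest mean signal of 13.01, changed by 0.0015.

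Complex V has a membrane rotor, a central stalk, a peripheral stalk and a catalytic head. Of its 10 measured genes 9 were below 0 at day 5, though by little, with a median change of −0.036 and a range from −0.20 to 0.006. The number below 0 was 10 after subtraction of array medians and 7 after cyclic loess scaling. All 10 intervals at day 5 lay inside 0.5 log2 units. Counted by gene, the first pair of day 5 carried the direction, since 9 of the 10 genes were lower in the knockdown sample there and 5 in the second pair. The median of the gene differences was −0.088 and −0.003 in the 2 pairs. The median level of the complex, however, differed by −0.116 in the first pair and −0.128 in the second. Without the first knockdown sample of day 5 the median change was 0.004, with 5 above 0 and 4 below.

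ATPsynC encodes subunit c, which forms the ring of the rotor, and had the lowest change of complex V. Its log2 values at day 5 were 13.06 and 13.05 in untreated cells and 12.86 and 12.85 in knockdown cells. The samples of each group nearly coincided and the groups stood apart. At day 3 the values were 13.19 and 12.94 untreated and 13.06 and 12.79 with dsRNA, with the knockdown sample lower in each pair and the groups overlapping. At day 1 they ran from 13.04 through 13.07 to 13.11 in untreated cells and from 12.99 through 13.01 to 13.10 in knockdown cells. The change was −0.04, −0.14 and −0.20 at days 1, 3 and 5, and at day 5 its SE was 0.10, its interval −0.41 to 0.01 and its adjusted p in limma 0.423, or 0.092 with the block.

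ATPsynO, the subunit that joins the peripheral stalk to the head, had values of 12.98 and 12.89 in untreated cells and 12.75 and 12.80 in knockdown cells at day 5. The groups did not overlap. The change was −0.16 (SE 0.09, adjusted p in limma 0.517). ATPsynbeta, the catalytic subunit, had the highest mean signal of all members, 13.68, and changed by −0.03 (SE 0.09, interval −0.23 to 0.17). The change was −0.03 for ATPsyndelta, of the central stalk, which had the lowest signal of complex V, and 0.006 for ATPsynD, of the peripheral stalk, which had the highest change.

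**Figure D2:**
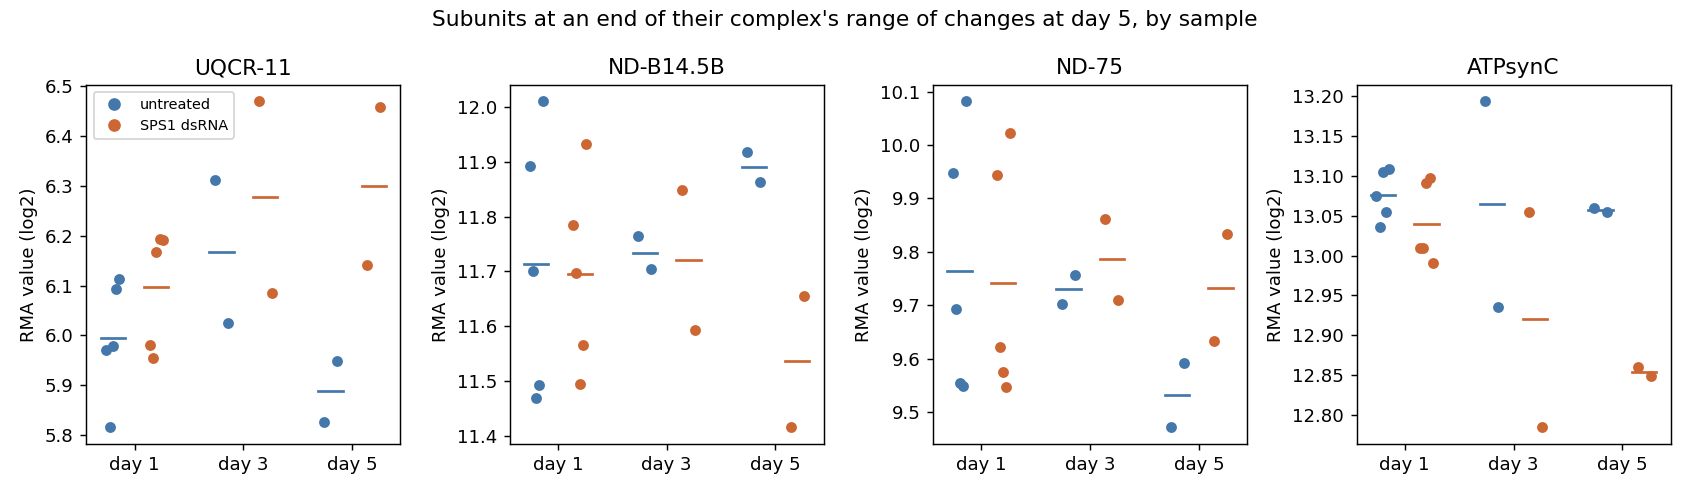
Log2 RMA values (vertical axis) of ND-B14.5B, ND-75, UQCR-11 and ATPsynC in all 18 samples, by day (horizontal axis) and treatment (colour), with lines at group means. Each was picked for being at an end of its complex's range of changes at day 5. Its groups do not overlap at day 5, with 2 samples each, as for 35.3% of all probe sets. At day 1, with 5 samples each, its groups overlap, as for all but 0.362% of all probe sets.

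Subunit levels differed between the samples of a group at day 1. In untreated cells at day 1 the subunit median was 11.88, 11.62, 11.51, 11.49 and 11.97 in replicates 1 to 5, and in knockdown cells it was 11.82, 11.64, 11.48, 11.53 and 11.89. Replicates 1 and 5 were high and replicates 3 and 4 low in both groups. Of the 48 subunits, 40 had their highest untreated value in replicate 5 and 37 their highest knockdown value there. The lowest value was that of replicate 4 for 21 subunits in each group. The median SD of a subunit at day 1 was 0.186 untreated and 0.166 with dsRNA, against 0.119 and 0.127 for all probe sets. For 45 of the 48 subunits the day 5 change was smaller than the range of the 5 untreated samples of day 1, the exceptions being ATPsynC, ATPsynO and UQCR-11. That range is of single samples and is partly shared by same-numbered samples of both groups, whereas the change is between group means. The count therefore cannot tell whether the subunits changed, and its share over all probe sets was not computed.

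At days 3 and 5 the pairs moved in different directions. In the first pair of day 3, 43 of the 48 subunits were higher in the knockdown sample, and in the second pair 40 were lower. In the first pair of day 5, 38 were lower in the knockdown sample, and in the second pair 27 were higher. The subunit median at day 5 was 11.75 and 11.74 in untreated cells and 11.51 and 11.69 in knockdown cells. The first knockdown sample was the low one, and it also had the highest array median of the 18 samples, 4.69. Without it the median change of the subunits at day 5 was 0.021, and the sign also turned, to 0.0096, after cyclic loess scaling. The subtraction of array medians gave −0.09, where all probe sets had a median of −0.05.

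**Figure D3:**
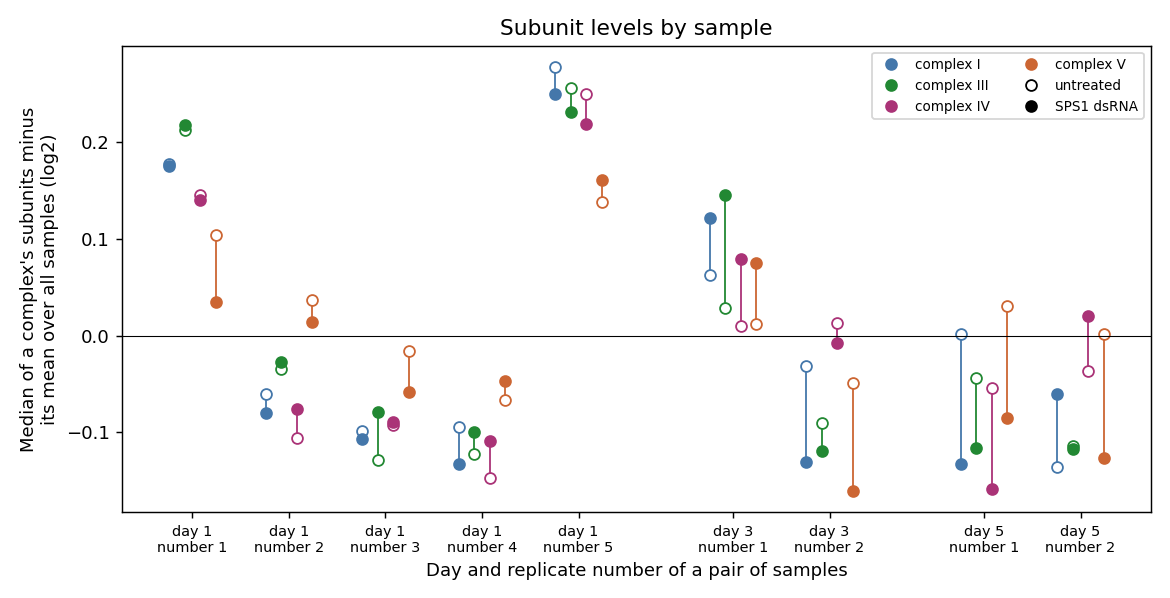
Median log2 value of each complex's subunits in each sample, minus that complex's mean over the 18 samples (vertical axis), for same-numbered pairs of samples at each day (horizontal axis). Open circles are untreated and filled circles SPS1 dsRNA, and lines join a pair. For each complex the highest and the lowest pair of day 1 lie farther apart than the samples of any 1 pair, and in the first pair of day 5 all 4 complexes are lower in the knockdown sample.

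At day 1 the groups of no member were apart from each other, against 0.362% of all probe sets. At day 3 this held for 3 subunits and 4 paralogs, against 24.3% of all probe sets. At day 5 it held for 17 of the 48 subunits, 6 with both knockdown values above and 11 with both below, which is 35.4%, against 35.3% of all probe sets. By direction, 12.5% of the subunits had both values above, against 17.8% of all probe sets, and 22.9% had both below, against 17.5%.

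No member's change at day 5 differed from that at day 1 or at day 3 (limma, adjusted p under 0.05), where 1.4 and 0.0959% of all probe sets differed, and at an unadjusted p under 0.05 the counts were 1 and 0 members, against 9.25 and 4.17%. With the block the counts were 0 and 0, against 6.82 and 1.2%. In untreated cells no member differed between day 3 and day 1 or between day 5 and day 1, where 0.107 and 0.186% of all probe sets did. For the subunits, untreated day 5 minus day 1 ran from −0.23 to 0.18 log2 units.

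The 18 paralogs gave low signals. Their mean log2 values ran from 3.27 to 5.65, none was above the array's upper quartile in all samples, and 9 were below the array median in every sample. Of 18 testis markers measured, with a list mean of 4.04 to 4.20 in every sample, none passed without the block. At day 5, 2.79% of all probe sets passed without the block and 12.2% with it. With the block 1 marker passed at day 5, bol, a regulator of translation in meiosis (0.79, adjusted p in limma 0.031). Over the list 10 were above 0 at day 5 and 8 below, with a median change of 0.025. The numbers were 9 and 9 after cyclic loess scaling and 5 and 13 after array medians were subtracted.

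At day 5, 15 paralogs were above 0 and 3 below, with a median change of 0.13. None passed without or with the block, against 2.79 and 12.2% of all probe sets. After either scaling alternative 13 were above 0. In 8 paralogs both knockdown values lay above both untreated values, 44.4% against 17.8% of all probe sets, and in none both lay below. In the first pair of day 5, 15 of the 18 were higher in the knockdown sample, with a median difference of 0.22, and in the second pair 12 were, with a median difference of 0.11. Without the first knockdown sample, the one with the highest array median, 11 were above 0 and 7 below, with a median of 0.05. Without the second all 18 were above 0, with a median of 0.20. The testis markers, also low in signal, depended on the same samples. Without the first knockdown sample 6 were above 0 and 12 below (median −0.057), and without the second 12 and 6 (median 0.121). For the fat body markers it was 2 and 4, then 5 and 1, and for the neuron markers 2 and 2 each time. How many probe sets of like low signal had groups apart in this way was not computed.

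COX7AL2, a copy of the COX7A gene, had the largest paralog change at day 5. Its values were 4.05 and 4.17 in untreated cells and 4.42 and 4.33 in knockdown cells, without overlap. The change was 0.27 (SE 0.11, interval 0.04 to 0.49, adjusted p in limma 0.287, or 0.0645 with the block). At day 3 its values were 3.99 and 4.08 untreated and 4.10 and 4.39 with dsRNA, again without overlap, and at day 1 the groups overlapped.

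ATPsynepsilonL, a copy of the gene for the epsilon subunit, had values of 5.58 and 5.40 in untreated cells and 5.71 and 5.73 in knockdown cells at day 5. The groups did not overlap, and the change was 0.23 (SE 0.10, adjusted p in limma 0.298, or 0.116 with the block). COX7AL, another copy of COX7A, had values of 4.63 and 4.70 untreated and 4.79 and 5.03 with dsRNA at day 5, a change of 0.25 (SE 0.15, adjusted p in limma 0.592). In untreated cells COX7AL was at 4.83 and 5.26 at day 3 and between 4.21 and 4.57 at day 1, without overlap. That difference of 0.62 (SE 0.13) had the smallest p of the members between untreated days, and it did not pass (adjusted p in limma 0.0944).

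COX4L gave the 1 unadjusted p under 0.05 at day 1. Its untreated values ran from 4.42 through 4.51 to 4.74 and its knockdown values from 4.21 through 4.34 to 4.43, with a small overlap. The change was −0.20 (SE 0.08, adjusted p in limma 1), and at day 5 it was −0.0035. Among copies of complex I genes the day 5 change was 0.22 for ND-51L1, 0.14 for ND-51L2, 0.20 for ND-20L and 0.07 for ND-24L. For UQCR-14L, COX5BL, UQCR-11L, COX6AL2, ATPsynCF6L and ND-B14.5AL it was 0.20, 0.15, 0.14, 0.13, 0.12 and 0.11. For ATPsynbetaL, COX6CL, COX6AL and ATPsynGL it was 0.04, 0.0075, −0.0025 and −0.10.

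**Figure D4:**
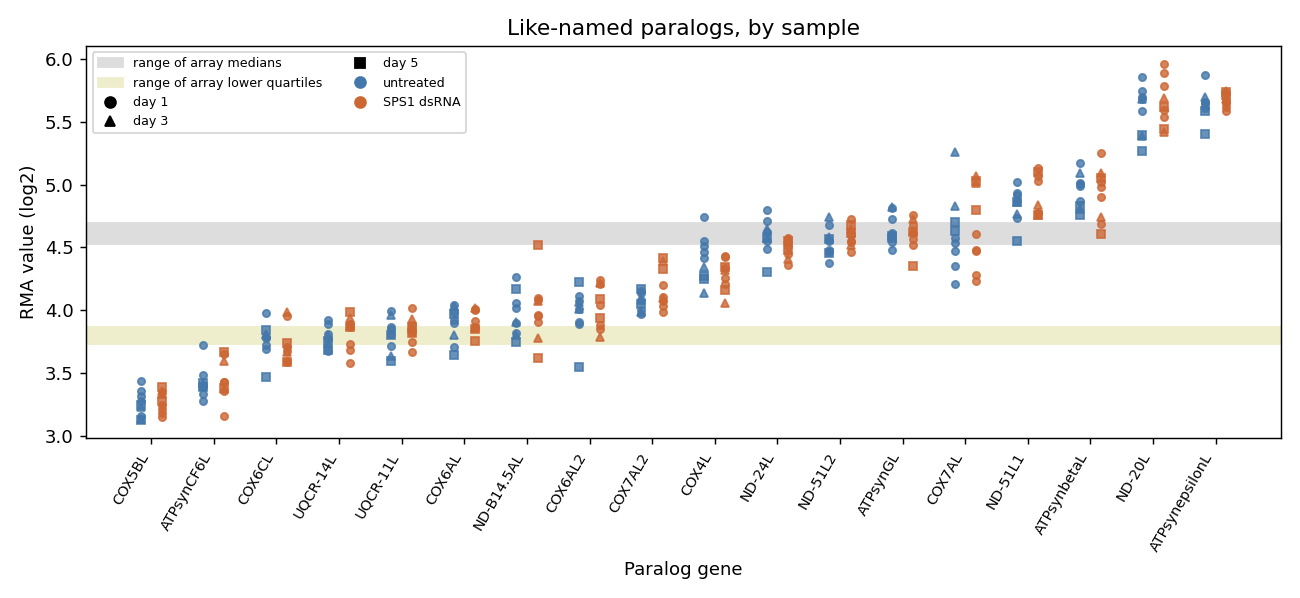
Log2 RMA values (vertical axis) of the 18 paralogs (horizontal axis, ordered by mean) in every sample, by treatment (colour) and day (marker), over bands for the range of array medians (4.53 to 4.69) and of lower quartiles (3.73 to 3.87). With the 3 days pooled, which makes overlap likely, untreated and knockdown values overlap in range for all 18 paralogs. At day 5 alone both knockdown values lay above both untreated values in 8, 44.4% against 17.8% of all probe sets. The share among probe sets of like low signal was not computed.

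Probe sets that match a subunit and a second gene were left out above, and 4 of them name a member family. The probe set of ND-AGGG, a complex I subunit, and CG40472 changed most, by −0.59 at day 5 (SE 0.16, interval −0.92 to −0.26). Its adjusted p in limma was 0.0576, or 0.00208 with the block, where 7.14% of all probe sets passed as lower. With the block its change at day 5 also differed from that at day 1, by −0.50 (adjusted p in limma 0.0221). That held for 6.82% of all probe sets. Which of the genes gave the signal cannot be told from this probe set. The probe sets of COX6B with CG18809, ATPsynG with beat-Vb and COX6AL2 with Ir75d changed by −0.13, −0.12 and 0.11 at day 5, with adjusted p in limma from 0.631 to 0.791.

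Of 13 listed subunits under other names 12 were measured, and none passed with or without the block at any day. The 13 include SdhAL and SdhBL, whose symbols end in L, so this list was not kept apart from paralogs. At day 5, 2.79% of all probe sets passed without the block and 12.2% with it, and at such shares few of 12 genes would pass. The same shares stand beside the counts of the lists that follow. They include blw, the alpha subunit of ATP synthase, at 0.0065 (SE 0.07) at day 5, and RFeSP, the Rieske iron-sulfur protein of complex III, at −0.09 (SE 0.11). Cyt-c1, the cytochrome of complex III, changed by −0.14 (SE 0.07) and SdhC, a membrane anchor of complex II, by −0.22 (SE 0.18). Their median change was −0.046 at day 5, with 3 above 0 and 9 below, beside a median of 0.015 and 53.5% above 0 for all probe sets. After cyclic loess scaling 5 were above 0 and 7 below, and after array medians were subtracted 1 and 11. Leaving out single samples of day 5 gave 2 to 5 above 0, with the median nearest 0, −0.017, without the first untreated sample and the farthest, −0.069, without the second knockdown sample. Subunits encoded in the mitochondrial genome were not analysed here.

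For assembly factors 28 symbols were listed, some of them spellings of the same gene, such as Cox11 and COX11, and 11 genes were measured. Of these 1 passed at day 5 without the block, against 2.79% of all probe sets, and none passed at days 1 and 3. With the block 4 passed at day 5, against 12.2%, and all 4 were lower, as were 7.14% of all probe sets. The median of the list was −0.055, or 0.037 after cyclic loess scaling and −0.12 after array medians were subtracted. The 1 that passed without the block, l(2)k14505, stands in the list although its role in assembly is not certain. It had values of 10.08 and 10.07 in untreated cells and 9.64 and 9.70 in knockdown cells, without overlap. It fell by 0.40 (SE 0.09, adjusted p in limma 0.0225, or 0.00355 with the block), after cyclic loess scaling by 0.32 (adjusted p in limma 0.0728). It did not pass without the first untreated, the second untreated or the first knockdown sample of day 5 (adjusted p in limma 0.144, 0.126 and 0.176), and passed without any other single sample.

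The others passed with the block alone. Cox11, which brings copper to complex IV, had values of 8.91 and 8.75 untreated and 8.35 and 8.51 with dsRNA at day 5. It changed by −0.40 (SE 0.11, adjusted p in limma 0.0788, or 0.0172 with the block). Scox, also of copper delivery to complex IV, changed by −0.30 (adjusted p in limma 0.337, or 0.0273 with the block). The complex I assembly factor sicily changed by −0.28 (adjusted p in limma 0.391, or 0.0302 with the block). Neither Scox nor sicily passed with the block after cyclic loess scaling. The remaining 7, among them Surf1 at −0.06 and Bcs1 at 0.20, passed in neither fit.

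None of 13 measured electron and inner membrane carriers of 17 listed passed without the block, and 4 were above 0 at day 5 and 9 below, or 6 and 7 after cyclic loess scaling and 3 and 10 after array medians were subtracted. Ant2, 1 of a pair of ADP/ATP translocases, passed with it at day 5, the only 1 of the 13, beside 12.2% of all probe sets, with values of 8.86 and 8.67 in untreated cells and 7.86 and 7.59 in knockdown cells. The groups lay far apart at day 5, and the change was −1.04 (SE 0.41, adjusted p in limma 0.268, or 0.00145 with the block). Its partner sesB changed by −0.18 (SE 0.09, adjusted p in limma 0.458, or 0.127 with the block). CG13551, listed under the synonym IF1 for the inhibitor of ATP synthase, changed by 0.20 (SE 0.18).

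Of 21 listed symbols of the citric acid cycle and its entry, 13 genes were measured. None passed without the block. The median change at day 5 was 0.15, with 10 above 0 and 3 below, or 11 and 9 above 0 after the scaling alternatives. With the block 2 passed, both higher, which is near the 12.2% of all probe sets that passed and against 5.07% that passed as higher. Idh, the NADP-dependent isocitrate dehydrogenase, changed by 0.34 (SE 0.21, adjusted p in limma 0.595, or 0.00964 with the block). Pdk, the kinase that switches off pyruvate dehydrogenase, had values of 7.46 and 8.36 untreated and 8.01 and 8.84 with dsRNA, higher in each pair with overlapping groups. It changed by 0.52 (SE 0.45, adjusted p in limma 0.749, or 0.0162 with the block).

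Of 15 listed symbols of regulators and of mitochondrial DNA maintenance, 11 genes were measured. At day 5, 3 were above 0 and 8 below, or 5 and 6 after cyclic loess scaling and 1 and 10 after array medians were subtracted. Without the first knockdown sample of day 5 they were 5 and 6, with a median of −0.007, and without the second 0 and 11, with a median of −0.24, beside −0.11 with both. None passed without the block, and 2 passed with it, both lower, beside 12.2% of all probe sets that passed with it and 7.14% that passed as lower. The mtDNA-helicase, which unwinds mitochondrial DNA for replication, had values of 8.63 and 8.57 in untreated cells and 7.68 and 8.01 in knockdown cells at day 5. The groups did not overlap, and the change was −0.75 (SE 0.21, adjusted p in limma 0.0748, or 0.00607 with the block). The single-strand binding protein mtSSB changed by −0.31 (SE 0.14, adjusted p in limma 0.351, or 0.0227 with the block). TFAM, the packaging and transcription factor of mitochondrial DNA, changed by −0.08 (SE 0.11).

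**Figure D5:**
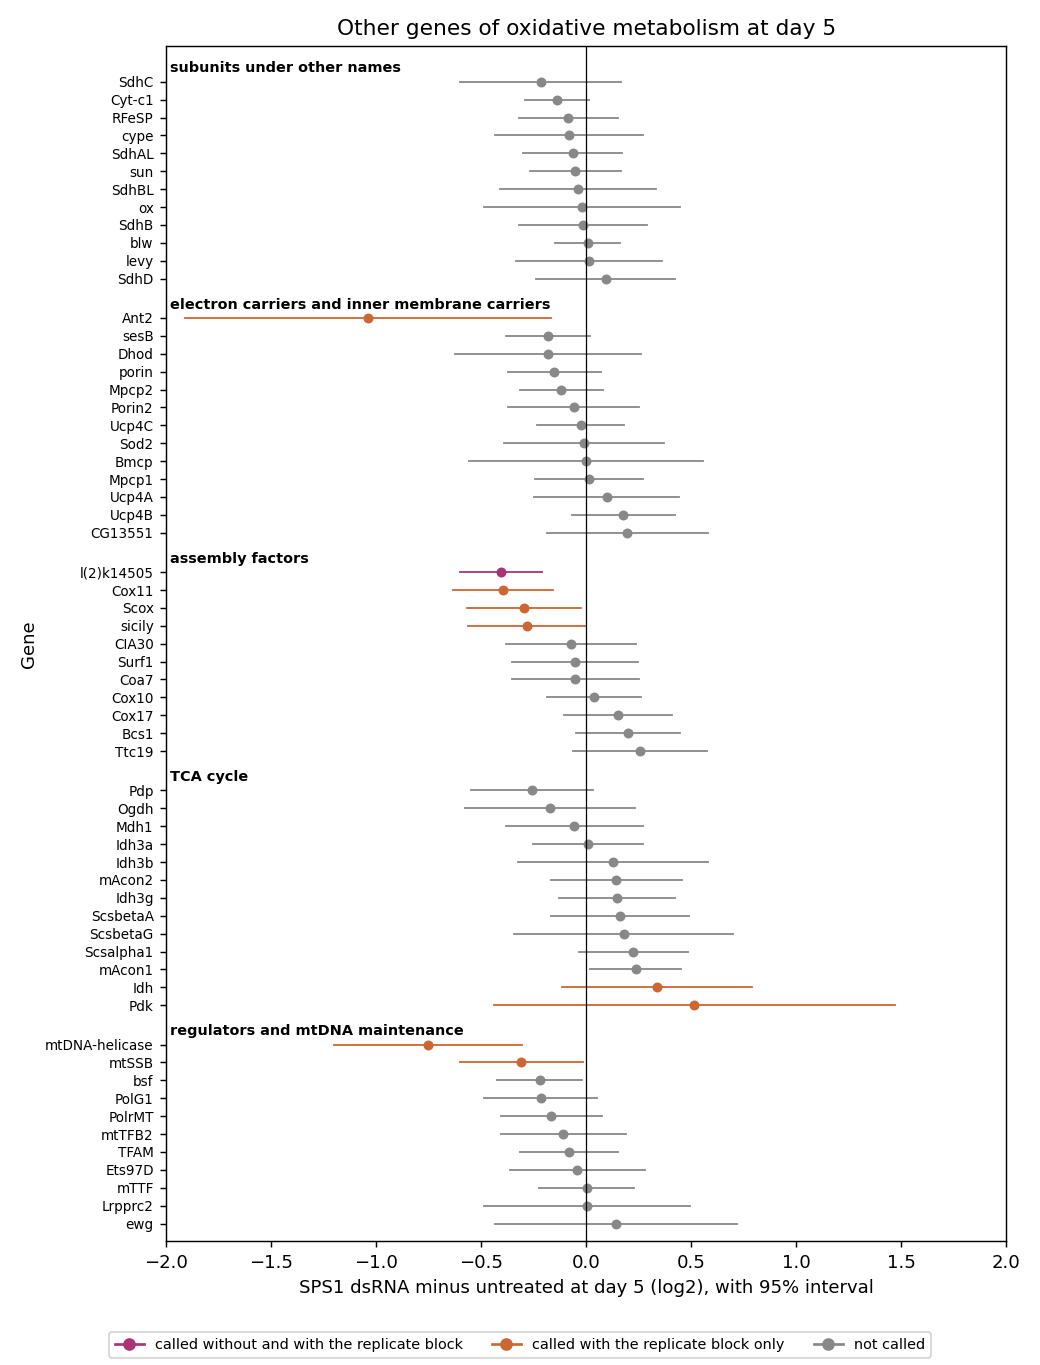
Change at day 5 of the genes of the other lists (vertical axis), as SPS1 dsRNA minus untreated in log2 units (horizontal axis), from the fit without the replicate block. Points are fitted changes, bars 95% intervals, and colours show which fit a gene passed in. The gene l(2)k14505 passed in both fits and 8 others with the block only, of which Ant2 is lowest and Pdk highest.

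Of 10 markers of plasmatocytes, the main blood cells of the fly, 2 were higher and passed at day 5, against 2.79% of all probe sets. They were the receptor eater (3.28, SE 0.42) and the peroxidasin Pxn (2.35, SE 0.29), with adjusted p in limma of 0.000179 and 0.000149. With the block 4 passed, against 12.2% of all probe sets, all of them higher. Over the list 8 were above 0 and 2 below, from −0.22 for crq to 3.28 for eater, with a median of 0.34. The list mean, 5.53 in both untreated samples of day 5 and 6.13 and 6.46 in the knockdown samples, takes most of its difference from eater and Pxn. Of the 10, Hml, He and Sr-CI had mean log2 values of 5.97, 3.63 and 3.70, the last 2 below the array median. The mean of the whole list ran from 5.53 to 6.46 over all samples, above the array medians of 4.53 to 4.69. Of the 6 muscle, 4 neuron and 6 fat body markers measured, none passed in either fit. In RNA from whole cultures, fewer cells of a kind and less RNA per cell cannot be told apart. The part of the marker change in the values of the members was not tested.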

How the data were processed

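RNA levels were measured in 18 samples on 20 arrays. The deposited table holds log2 values, which the authors made with RMA, per the submitters' processing notes, with the version not given in the sources used here. Its 18952 probe sets run from 2.475 to 14.359, and 18769 remained after 183 control probe sets were left out. Gene symbols came from the platform annotation, with 13647 probe sets under 1 symbol, 402 under several and 4720 unnamed. The number of arrays limits the precision. No sequence or coordinate is printed, since no genome or sequence table was used here.

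The 2 technical arrays were averaged with replicate 2 of their group, as their number says. In limma 3.58.1 (R 4.3.3) a model of 6 group means was fitted to the deposited values, with variances moderated by eBayes (degrees of freedom 12 residual, 4.26 prior). Adjusted p-values are Benjamini-Hochberg values over all 18769 probe sets, and under 0.05 a probe set passed. Changes, SEs and 95% intervals are those of this fit. The spread is estimated over all groups, so the later days lean on the samples of day 1. The script was tested on simulated data with independent noise in each sample and changes of 1 log2 unit or more. Smaller changes, paired samples and the fit with the block were not covered by that test.

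As a check of pairing, same-numbered samples were compared by their deviations from group means. These correlated, over 6843 probe sets with mean log2 above 6, at 0.689 to 0.838 in the 5 pairs of day 1, each sample best with its own number, at 0.782 on day 3 and at 0.712 on day 5. The numbers were therefore taken to pair the samples. This rests on the data, because no label explains the numbers. The fit with the block has degrees of freedom 6 residual, 5.41 prior.

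The members, the gene lists and the naming rule were chosen with earlier results of these data known. Named are genes that passed in either fit, the highest and lowest of each complex by change at day 5 and by mean, the members with the smallest p at each day, and every paralog. Some list genes that did not pass are named for their function. Alternatives covered the block, technical arrays, scaling, variance prior, groups fitted, dim probe sets, probe sets per gene and single samples.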

Additional observations from a re-analysis of the deposited data

Results flagged for a closer look

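Samples far from the rest of their group were sought among groups of 5, which only day 1 has. Of 76 groups of values tested, 2 had such a sample, and chance alone gives about 3.8. ATPsynepsilonL was at 5.87 in untreated replicate 2 of day 1, while the other untreated replicates lay between 5.608 and 5.653. The median of the 18 paralogs was 4.143 in untreated replicate 5 of day 1, while the others lay between 4.264 and 4.306. The same replicate had the highest value of 40 of the 48 subunits.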

How the results depend on the processing

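No member passed at any day under the alternatives without the replicate block, and no change that passed in any fit turned its sign. With the block 2 members passed at day 5. Of 3 alternatives chosen after seeing the data, the block with cyclic loess gave 3 (UQCR-11, ND-75 and ND-B14.5B), the block without the first pair of day 5 gave 1 (UQCR-11) and the block without the second pair gave 1 (ND-B14.5B), and without the second pair 1 member differed between day 5 and day 1. Leaving out 1 sample kept the members that passed at 0 for each day and each difference between days. The median subunit change then ran from −0.0504 to 0.0529 at day 1, from −0.0449 to 0.1115 at day 3 and from −0.058 to 0.0213 at day 5. Over all probe sets 33 passed at day 3 and 523 at day 5. At day 3 the count was 234 with the block, 262 with the block and cyclic loess, 292 with the block without either pair of day 5, 72 with technical arrays averaged with replicate 1 and 0 (limma) with the groups of the day alone. At day 5 it was 2293 with the block, 2239 with the block and cyclic loess, 1700 with the block without the second pair and 81 with the groups of the day alone. Without single samples it ran from 0 to 1 at day 1, 11 to 47 at day 3 and 264 to 777 at day 5. Cox11 and mtDNA-helicase also passed at day 5 with technical arrays averaged with replicate 1 (adjusted p in limma 0.0425 and 0.0437), as did Ant2 (0.0485), and with only probe sets of mean log2 at least 5 (0.0476 and 0.049). With the groups of the day alone l(2)k14505 did not pass (adjusted p in limma 0.401). Without untreated replicate 1 of day 1 mtDNA-helicase passed (0.0479), and without either knockdown sample of day 3 so did Cox11 (0.0488). Of the 9 list genes that passed with the block, Ant2 alone passed with it without the first pair of day 5 (0.0317), and without the second pair Ant2, Cox11, l(2)k14505, mtDNA-helicase and mtSSB passed (0.0154 to 0.0466). The causes were not tested. Low signals limit the paralogs, ND-B8, ND-B12 and UQCR-11.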
